A study of Mus musculus with 12 samples.

Results

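The genes described here encode 5 lymphocyte antigen 6 (Ly6) surface proteins, Ly6d, Ly6c1, Ly6c2, Ly6a and Ly6e. They were found by symbol among the 55491 genes of the count and TPM tables, and all 12 libraries were used. The genes are assumed to have been selected on their rise at day 2 of this series. Whether later days were also in view is not stated. Every comparison with control and every comparison that uses the day 2 libraries is therefore given for them as a description without a test. The difference between day 12 and day 6, which uses neither the day 2 nor the control libraries, was tested. Had high day 6 values been in view, the choice of genes would favour a fall from day 6 to day 12. After the filter on low counts 4 of the 5 genes remained, and Ly6c2 did not.

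The RNA came from PT-22, a mouse kidney cell line whose labelled cell type is proximal tubule and whose genotype in every library, controls included, was Pax2-/-, Pax8fl/fl, Rosa-CreERT2. Confluent cells received 1 µM 4-hydroxytamoxifen for 2 days, which switches on the Cre recombinase so that the loxP-flanked Pax8 gene can be cut, in order to deplete the kidney transcription factor PAX8. PolyA RNA was sequenced from 3 control libraries, whose treatment is given as none, and from 3 libraries each at day 2, day 6 and day 12. The labels give no vehicle control and no untreated library at a later day, so the drug, Cre activity, time in confluent culture and loss of PAX8 cannot be told apart. All libraries are from 1 line, and nothing in the labels says whether A, B and C were separate cultures, so a p-value speaks only to how these libraries vary.

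Depth was 4326667 counts in the smallest library (day 2 B) and 11654959 in the largest (day 2 C), and mitochondrial genes took 3.75 to 5.70% of counts, with the highest share in day 2 B. Pax8 itself had 221 to 228 TMM-scaled CPM (counts scaled to a common library size of 1000000) in control, 367 to 460 at day 2, 249 to 268 at day 6 and 232 to 252 at day 12. The count of the targeted gene was thus not lower in any treated library than in the controls. It sums the whole gene, and the deleted segment is not given in the labels, so it does not check the deletion, and the groups are called here by their labelled day only.

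Ly6 proteins are small secreted or membrane proteins whose disulphide-bonded loops form a finger-like fold, and most are held on the outer face of the cell by a glycosylphosphatidylinositol (GPI) anchor. In the mouse many of their genes lie in a cluster on chromosome 15, and several are known as antigens by which blood cells, stem cells and endothelium are sorted. Interferons raise the expression of Ly6a, Ly6c and Ly6e in lymphoid and myeloid cells.

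In the GENCODE M21 annotation of GRCm38 the 5 protein-coding genes lay on chromosome 15 within 349.9 kb. Ly6d was at chr15:74762056-74763620 on the minus strand, Ly6e at chr15:74955051-74959905 on the plus strand, Ly6a at chr15:74994877-74998031 on the minus strand, Ly6c1 at chr15:75044018-75048830 on the minus strand and Ly6c2 at chr15:75108158-75111970 on the minus strand. Ly6c1 and Ly6c2 are near copies: their longest protein-coding transcripts were identical at 97.6% of aligned bases. The windows around their starts are printed because the pair differed widely in level while sharing much of this sequence. RefSeq on GRCm38.p6 lists 2 such windows for each gene, from 250 bases before to 50 after a start. For each gene the window whose start lies nearest the GENCODE gene start follows, 5′ to 3′ on the minus strand. Runs of at least 15 bases common to both are in capitals.
Ly6c1, chr15:75048788-75049087: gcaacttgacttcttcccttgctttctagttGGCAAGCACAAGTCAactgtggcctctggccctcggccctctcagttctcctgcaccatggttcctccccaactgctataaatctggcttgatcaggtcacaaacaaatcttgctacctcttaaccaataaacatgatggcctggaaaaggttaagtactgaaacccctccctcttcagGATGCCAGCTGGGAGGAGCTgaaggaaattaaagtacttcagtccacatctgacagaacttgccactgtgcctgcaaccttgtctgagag
Ly6c2, chr15:75111922-75112221: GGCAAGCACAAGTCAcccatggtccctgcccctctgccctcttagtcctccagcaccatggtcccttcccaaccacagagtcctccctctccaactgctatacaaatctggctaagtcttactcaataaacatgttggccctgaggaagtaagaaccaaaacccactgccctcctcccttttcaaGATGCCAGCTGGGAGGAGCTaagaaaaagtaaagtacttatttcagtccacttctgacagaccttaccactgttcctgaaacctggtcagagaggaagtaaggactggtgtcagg
The common runs covered 35 bases of each window, and 208 of 266 aligned bases (78.2%) were the same. Neither strand of any of the 4 windows held a GAS element (TTCNNNGAA), the core of an interferon-stimulated response element (AAANNGAAA), an AP-1 site (TGANTCA) or a paired domain core (GTCANGC). Of 32851 RefSeq windows of the same length, 8.30%, 10.6%, 7.81% and 10.7% held them, in that order. No motif string contains another. A missing match says only that these letters are not in these windows.

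The near copies also limit how counts can be assigned. Of the 50-base stretches of Ly6c1 transcripts, 32.8% occurred in another gene, mainly Ly6c2, against 31.2% for Ly6c2, 19.0% for Ly6a and 0 for Ly6d and Ly6e. At 100 bases these shares were 10.1% for Ly6c1, 14.9% for Ly6c2 and 1.45% for Ly6a. The split between Ly6c1 and Ly6c2 is therefore an estimate of the counting tool. Of the 246 shared 50-base stretches of Ly6a, 195 occurred in Ly6c1, so the split between Ly6a and Ly6c1 is in part an estimate too.

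Ly6d, Ly6c1 and Ly6a were low to moderate in control and highest at day 6 or day 12, whereas Ly6e was abundant from the start and peaked at day 2. Ly6d, an antigen of keratinocytes and of early B-lineage cells, stood at 1.84, 0.83 and 0.84 CPM in control A, B and C. It reached 28.4, 21.0 and 23.6 CPM at day 2 and 128, 132 and 126 CPM at day 6. At day 12 it stood at 60.2, 65.2 and 68.0 CPM. All 4 groups were separate, in the order control, day 2, day 12, day 6. The group means were 1.17 ± 0.58, 24.3 ± 3.8, 129 ± 3.2 and 64.5 ± 3.9 CPM for control, day 2, day 6 and day 12 (SD, n = 3 each). The fitted log2 fold change of Ly6d against control was 4.37 ± 0.19 (SE) at day 2, 6.75 ± 0.15 at day 6 and 5.76 ± 0.16 at day 12, or 20.7-fold, 108-fold and 54.1-fold. The control level rested on 16, 6 and 8 counts, so the size of these folds depends on few reads. DESeq2 gave larger errors for Ly6d, with an SE of 0.28 at day 2, at day 6 and at day 12, so the edgeR values may overstate the precision.

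**Figure D1:**
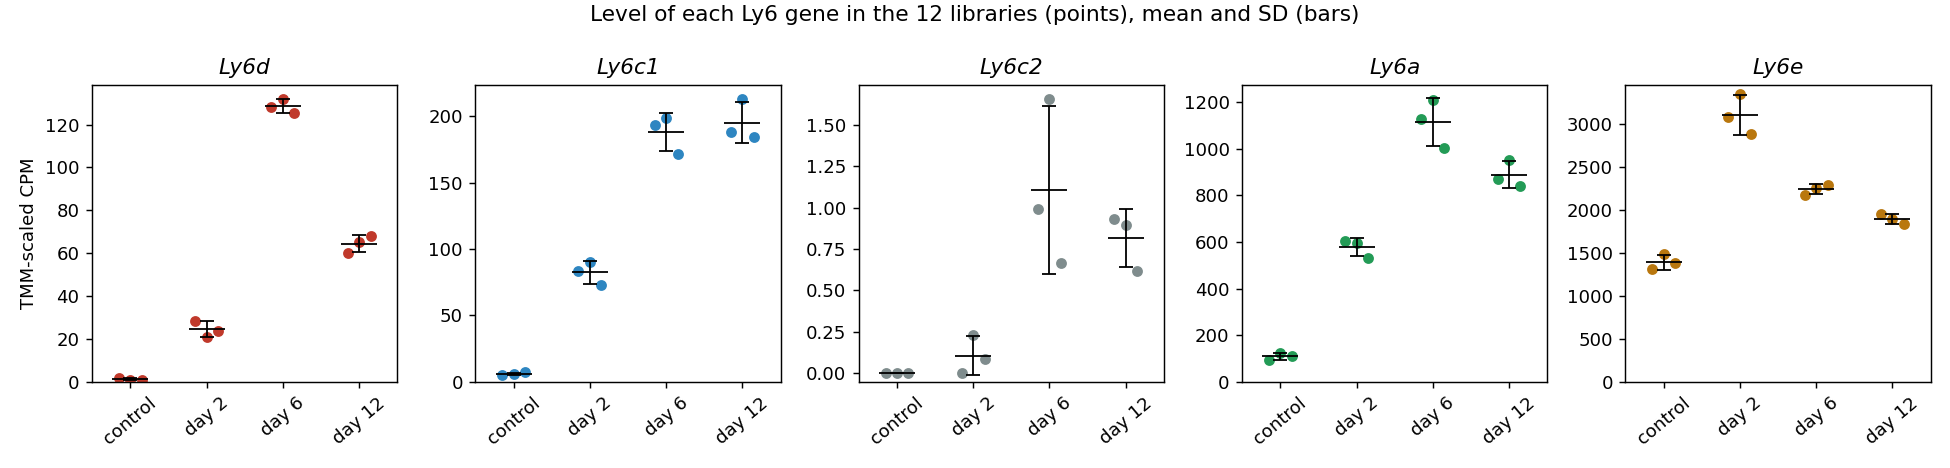
Level of each Ly6 gene in TMM-scaled CPM (linear y axes with separate scales) in the 3 libraries of each group on the x axis. Points are libraries and bars are the mean with SD; Ly6d, Ly6c1 and Ly6a have their lowest libraries in control and Ly6e has its highest at day 2.

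Ly6c1, 1 of the genes of the Ly-6C antigen of mouse monocytes and endothelium, had 5.07, 5.81 and 6.90 CPM in control and 83.7, 90.3 and 72.8 CPM at day 2. It had 194, 198 and 172 CPM at day 6 and 188, 213 and 185 CPM at day 12. Control, day 2 and the later days did not overlap, while the day 6 and day 12 libraries did. Its log2 fold change against control was 3.76 ± 0.12 (SE) at day 2, 4.98 ± 0.11 at day 6 and 5.03 ± 0.11 at day 12, which is 13.6-fold, 31.5-fold and 32.7-fold.

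Ly6c2, the other Ly-6C gene, stayed near the limit of detection. It had 0 counts in every control library, 0, 1 and 1 counts at day 2, 10, 15 and 5 at day 6 and 8, 8 and 6 at day 12. The level assigned to it was set against a floor of 3 counts over the control group (0.118 CPM). That level was at least 9.57-fold higher at day 6 and at least 6.86-fold higher at day 12. Reads of Ly6c1 that the counting tool placed in Ly6c2 cannot be told apart from its own, and their part was not tested. The control and day 2 libraries overlapped, as did those of day 6 and day 12. As a share of Ly6c1 and Ly6c2 counts together, Ly6c2 took 0 of 152 in control (exact 95% binomial interval 0 to 2.40%) and 0.108% at day 2 (0.0131 to 0.389%). Reading 0 as at most 3 counts, as in the floor above, allows a control share of up to 1.97%. The share was 0.593% at day 6 (0.400 to 0.845%) and 0.413% at day 12 (0.259 to 0.625%), intervals that cover counting error only. The control interval includes the shares of all treated days. Nearly all counts assigned to the pair were thus those of Ly6c1 in every group.

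Ly6a, the stem cell antigen Sca-1 of mouse blood stem cells and several tissue progenitors, had 91.8, 121 and 111 CPM in control and 603, 594 and 533 CPM at day 2. It had 1130.5, 1210.35 and 1005 CPM at day 6 and 872, 954 and 840.5 CPM at day 12. The 4 groups were separate in the order control, day 2, day 12, day 6, the same order as for Ly6d. The log2 fold change of Ly6a against control was 2.42 ± 0.10 (SE) at day 2, 3.37 ± 0.10 at day 6 and 3.04 ± 0.10 at day 12, that is 5.34-fold, 10.3-fold and 8.23-fold.

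Ly6e, also called thymic shared antigen 1 and known in mouse and human as a restriction factor for coronavirus entry, had 1309, 1482 and 1380.1 CPM in control. It had 3079, 3352 and 2883 CPM at day 2, 2174, 2250.3 and 2289.9 CPM at day 6 and 1956, 1898 and 1832 CPM at day 12. The groups were separate in the order control, day 12, day 6, day 2, so Ly6e alone among the 5 genes had its highest level at the first treated day. Its log2 fold change against control was 1.16 ± 0.06 (SE) at day 2, 0.69 ± 0.06 at day 6 and 0.45 ± 0.06 at day 12, or 2.23-fold, 1.61-fold and 1.36-fold.

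Over all 13513 genes tested, 21.2% passed the threshold of an adjusted p of 0.05 at day 2 against control, 54.3% at day 6 and 52.8% at day 12 (edgeR's quasi-likelihood test, Benjamini-Hochberg). Because the 5 genes are assumed to have been chosen on the day 2 contrast, their own position in it is only descriptive. Ranked from the highest log2 fold change at day 2, Ly6d was 9th, Ly6c1 16th, Ly6a 68th and Ly6e 295th of 13513. By day 12 they were 57th, 79th, 206th and 2573rd.

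Per transcript length, Ly6e was the most abundant of the 5 genes in each library. Its mean TPM was 3111 ± 111 (SD, n = 3) for control, 6757 ± 279 for day 2, 5254 ± 75 for day 6 and 4287 ± 29 for day 12. That placed it 22nd to 24th among all genes of a control library, 11th to 13th at day 2, 12th at day 6 and 16th to 18th at day 12. Ly6a moved from 252 ± 28 TPM and rank 501 to 633 in control to 2795 ± 253 TPM and rank 25 to 30 at day 6. Ly6c1 went from 17.1 ± 2.1 TPM in control to 590 ± 53 at day 6, and Ly6d from 3.74 ± 1.99 to 423 ± 9.

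Together the 5 genes took 0.338 ± 0.014% (SD, n = 3) of all TPM in control. This share was 0.835 ± 0.029% in day 2 libraries, 0.906 ± 0.031% in those of day 6 and 0.726 ± 0.024% in those of day 12. The makeup of this sum differed between groups. Ly6e made up 91.9 ± 0.5% of it in control libraries, 81.0 ± 0.7% in those of day 2, 58.0 ± 2.1% in those of day 6 and 59.1 ± 1.6% in those of day 12. The ratio of Ly6a to Ly6e TPM lay between 0.074 and 0.086 in the control libraries and between 0.48 and 0.57 at day 6. Such shares describe RNA in bulk samples, in which fewer cells of a type and less RNA per cell cannot be told apart.

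**Figure D2:**
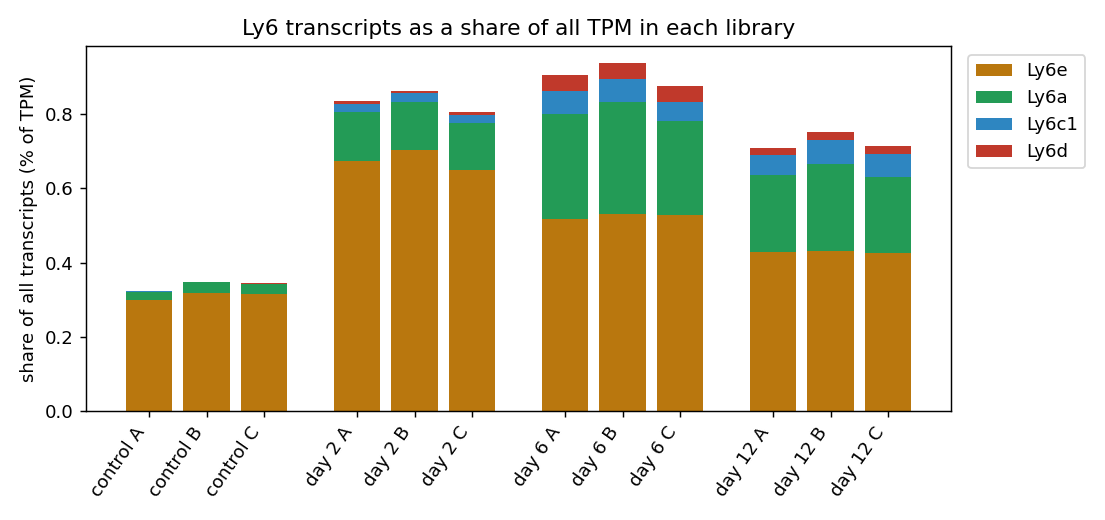
Share of all TPM (%, y axis) taken by Ly6e, Ly6a, Ly6c1 and Ly6d in each of the 12 libraries (x axis), stacked from 0; Ly6c2 is too low to draw. The stack is lowest in the 3 controls and highest at day 6, where Ly6a, Ly6c1 and Ly6d take the largest part beside Ly6e.

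From day 6 to day 12 the 5 genes did not move together. Ly6d fell by 1.00 on the log2 scale (SE 0.08, edgeR adjusted p = 7.28e-12), which is 1.99-fold, and its 3 day 12 libraries lay below its 3 day 6 libraries. Ly6a fell by 0.33 (SE 0.09, edgeR adjusted p = 0.0123), again with no overlap, but without day 12 A its edgeR adjusted p was 0.0536 at a log2 difference of -0.32. Ly6e fell by 0.24 (SE 0.06, edgeR adjusted p = 0.00198), with no overlap between the groups. For Ly6c1 the difference was 0.05 ± 0.07 (SE) on the log2 scale with overlapping libraries, and it did not pass the threshold (edgeR adjusted p = 0.659), which does not show that its level was the same. Ly6c2 was below the filter, and without the filter its log2 difference was -0.46 (edgeR adjusted p = 0.708). So 3 of the 4 genes tested fell and none rose, beside 22.0% of all 13513 genes past the threshold, 1482 higher and 1489 lower.

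The ratio of Ly6d to Ly6c1 TPM shows the same divergence within libraries. It was 0.67 to 0.78 at day 6 and 0.32 to 0.37 at day 12, close to the 0.26 to 0.39 of day 2. The ratio of Ly6c1 to Ly6a TPM was 0.061 to 0.074 in control, 0.16 to 0.18 at day 2, 0.20 to 0.22 at day 6 and 0.26 to 0.29 at day 12, with no overlap between groups. Over the 12 libraries, Pearson's r of log2 CPM was 0.994 between Ly6c1 and Ly6a, 0.983 between Ly6d and Ly6a and 0.977 between Ly6d and Ly6c1. With Ly6e it was 0.578 to 0.641. The 12 points share 4 group levels, so these r describe the course of the group means and carry no test. Ly6c1 and Ly6a also share some transcript stretches, which bears on their ratio and r.

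The genes whose course over the 12 libraries was most like that of each Ly6 gene were taken from 10526 tested genes with a mean of at least 5 CPM. For Ly6a they were Lynx1 (r = 0.9952), another Ly6 family gene, then Kitl (0.9926), Angpt1 (0.9906) and Dio3 (0.9888). For Ly6c1 they were Kitl (0.9944), Lynx1 (0.9918), Cyp1b1 (0.9901) and Fgf1 (0.9891). Kitl encodes the ligand of the KIT receptor, Angpt1 a ligand of the TIE2 receptor, Dio3 a thyroid hormone deiodinase, Cyp1b1 a cytochrome P450 and Fgf1 a fibroblast growth factor. Mean CPM of Kitl was 27.1 ± 1.8 (SD, n = 3) for control, then 134 ± 10, 218 ± 1.7 and 192 ± 4.8 for the treated days in order. For Ly6d they were Angpt1 (0.9933), Erbin (0.9924), Rassf9 (0.991) and Ccn4 (0.9896). Angpt1, low in control, had 0.43 ± 0.03, 4.54 ± 0.41, 13.2 ± 0.9 and 7.69 ± 0.73 CPM from control to day 12, with its peak at day 6 like Ly6d. High r was common for these 3 genes: 456 of the 10526 genes exceeded 0.9 with Ly6d, 417 with Ly6c1 and 402 with Ly6a.

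Fewer genes followed the course of Ly6e, with 27 of 10526 above an r of 0.9. The closest were Cav1 (r = 0.981), which encodes the coat protein of caveolae, Cebpa (0.9785), a transcription factor, Atp2b4 (0.9685), a plasma membrane calcium pump, and Lhx1 (0.9607), a transcription factor of kidney development. Mean CPM of Cav1 was 46.7 ± 0.9 (SD, n = 3) for control, then 138 ± 24, 96.2 ± 6.3 and 78.8 ± 3.8 for the treated days, the order of groups seen for Ly6e.

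Most of the rest of the Ly6/uPAR family was silent or too low to test. Of 52 other family genes in the tables, 25 had 0 counts in every library and 9 passed the filter. Of these 9, edgeR called 3 higher and 3 lower at day 2 against control, 3 higher and 2 lower at day 6, and 5 higher and 2 lower at day 12, beside 21.2%, 54.3% and 52.8% of all genes tested, called in either direction. The median log2 fold change of the 9 was 0.29, 0.03 and 0.82, beside -0.0015, -0.0060 and -0.0028 over all genes tested.

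Lynx1, a GPI-anchored modulator of nicotinic acetylcholine receptors whose gene neighbours Ly6d, was the most abundant of them. It had 60.7, 60.2 and 58.0 CPM in control, 265, 245 and 255 at day 2, 413, 413 and 389.6 at day 6 and 335, 336 and 346 at day 12. The groups were separate and in the order seen for Ly6a and Ly6d. Lynx1 was 4.28-fold higher than control at day 2 (edgeR adjusted p = 4.62e-24), 6.80-fold at day 6 (6.58e-29) and 5.68-fold at day 12 (9.79e-28). No 50-base stretch of its transcripts occurred in another gene. Ly6g, the neutrophil antigen, stayed low, with 3, 0 and 1 counts in control, 18, 13 and 19 at day 2, 27, 35 and 26 at day 6 and 65, 55 and 46 at day 12. It rose by 3.69 on the log2 scale at day 2 (SE 0.57, edgeR adjusted p = 4.43e-06), by 4.28 at day 6 and by 5.16 at day 12, from a control level too low for a precise fold.

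The other family genes that rose did so late or briefly. Lypd1, a modulator of nicotinic receptors in mouse brain, had 0 counts in control, 4, 0 and 1 at day 2, 24, 14 and 14 at day 6 and 20, 17 and 18 at day 12. Against 3 counts over the control group it was at least 16.6-fold higher at day 6 and at least 17.2-fold higher at day 12, and it passed the threshold at both days. Cd59a, which blocks the complement attack complex, had 1.06 ± 0.12 CPM in control and 2.48 ± 0.45 at day 12 (SD, n = 3 each; edgeR adjusted p = 0.00621). Psca, prostate stem cell antigen, had 2.55 ± 0.42 CPM in control and 5.60 ± 1.91 at day 2 (edgeR adjusted p = 0.00354), and 2.65 ± 0.63 and 2.67 ± 0.67 at days 6 and 12, where it did not pass.

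Lypd6b and Lypd6, related genes whose products act on nicotinic receptors, ran the other way at day 2. Lypd6b fell from 33.4, 32.9 and 36.3 CPM in control to 6.26, 10.1 and 6.83 at day 2 (log2 fold change -2.22 ± 0.14, edgeR adjusted p = 3.52e-15) and stood at 14.0 ± 0.8 CPM at day 12. Lypd6 fell from 9.61 ± 1.39 CPM to 4.78 ± 0.62 at day 2 (edgeR adjusted p = 7.34e-05) and was above control at day 12, at 17.1 ± 2.0 CPM (1.76-fold, edgeR adjusted p = 1.71e-05), a call lost with limma on log2(TPM + 1) and log2(TPM + 0.1) (adjusted p = 0.0820 and 0.0929). Plaur, the urokinase receptor, fell from 33.2 ± 0.8 CPM in control to 20.9 ± 2.0 at day 12 (edgeR adjusted p = 4.55e-07). At day 6 it was 1.25-fold lower (edgeR adjusted p = 0.00426), a call lost in both limma settings (0.0928 and 0.0940). Its fall at day 2 (edgeR adjusted p = 0.0449) stayed called in only 1 of 13 alternatives. The call was lost with DESeq2 (adjusted p = 0.152), in both limma settings (0.0897 and 0.0912) and when any 1 library of the contrast was left out. Ly6g2 passed in none of the contrasts with control, at 9.30 ± 1.60 CPM in control and 7.38 ± 1.67 at day 12.

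**Figure D3:**
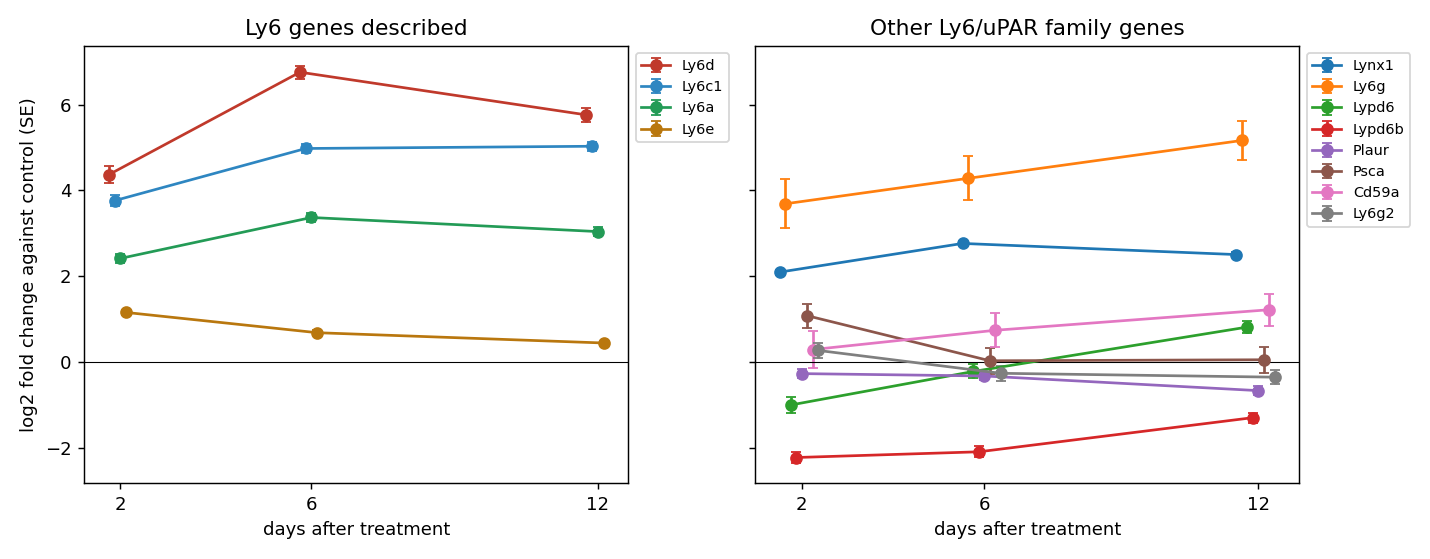
Log2 fold change against control with SE (y axis) at 2, 6 and 12 days (x axis) for the 4 tested Ly6 genes described (left) and 8 other tested Ly6/uPAR genes (right; Lypd1 is left out because its control count is 0). Each line joins the 3 contrasts of a gene, which share the control libraries; Lynx1 at 2.10, 2.77 and 2.51 and Ly6g lie above the other genes of the right panel.

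Between day 6 and day 12, 3 of the 9 other family genes rose and 2 fell, beside 22.0% of all genes past the threshold. Lynx1 fell by 0.26 on the log2 scale (SE 0.05, edgeR adjusted p = 3.05e-04), as Ly6a, Ly6d and Ly6e did. Lypd6 rose by 1.03 (SE 0.15, edgeR adjusted p = 3.04e-06), but not past the threshold with limma on log2(TPM + 1) (0.63, adjusted p = 0.200) or log2(TPM + 0.1) (0.72, adjusted p = 0.209). Lypd6b rose by 0.79 (SE 0.14, edgeR adjusted p = 6.79e-05). Ly6g rose by 0.88 (SE 0.26, edgeR adjusted p = 0.0121), but its call was lost without day 6 A (adjusted p = 0.0888) and without day 12 A (0.104), as well as with DESeq2 (0.0732) and with limma on log2(TPM + 1) and log2(TPM + 0.1) (0.108 and 0.496). Plaur fell by 0.34 (SE 0.10, edgeR adjusted p = 0.0110), a call lost without day 6 C (0.0798) and without day 12 B (0.0780).

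Around the 5 genes, 51 other genes lay within 500 kb on chromosome 15, of which 23 had 0 counts in every library and 10 passed the filter. These neighbours include Lynx1, Psca, Ly6g and Ly6g2, and pseudogenes of the cluster make up many of those at 0. Of the 10, edgeR called 6 higher and 1 lower at day 2 against control, 5 higher and 1 lower at day 6 and 4 higher and 1 lower at day 12, beside 21.2%, 54.3% and 52.8% of all genes called in either direction. Arc, a synaptic immediate early gene, was 1.40-fold higher at day 2 (edgeR adjusted p = 0.00104), 2.22-fold at day 6 (1.12e-11) and 1.32-fold at day 12 (0.00225). Them6, a thioesterase superfamily gene, was 1.95-fold higher at day 2 (edgeR adjusted p = 6.14e-06) and 1.52-fold at day 6 (2.07e-04), and its 3′ end overlaps Slurp1 on the other strand.

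The noncoding gene Gm39556, between Ly6d and Ly6e, was low and higher at each day (log2 fold change 3.12 ± 0.66, 2.96 ± 0.66 and 2.38 ± 0.71; edgeR adjusted p = 4.55e-04, 2.78e-04 and 0.00534). Without day 12 C its day 12 value was 1.62 and not called (edgeR adjusted p = 0.111). Adgrb1, an adhesion receptor gene at the far side of Arc, went the opposite way, with log2 fold changes of -0.97 ± 0.26 at day 2 (edgeR adjusted p = 0.00480), -4.06 ± 0.36 at day 6 (1.33e-11) and -5.17 ± 0.42 at day 12 (9.89e-13). Its day 2 call was lost with limma on log2(TPM + 1) and log2(TPM + 0.1) (adjusted p = 0.156 and 0.381). Adgrb1 had only 3, 4 and 4 counts at day 6 and 0, 4 and 1 at day 12, so its later folds are not precise. Under the alternatives its log2 fold change ran from -4.23 to -2.11 at day 6 and from -6.69 to -2.38 at day 12. Jrk and its overlapping antisense gene 4933427E11Rik passed in none of the contrasts with control.

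**Figure D4:**
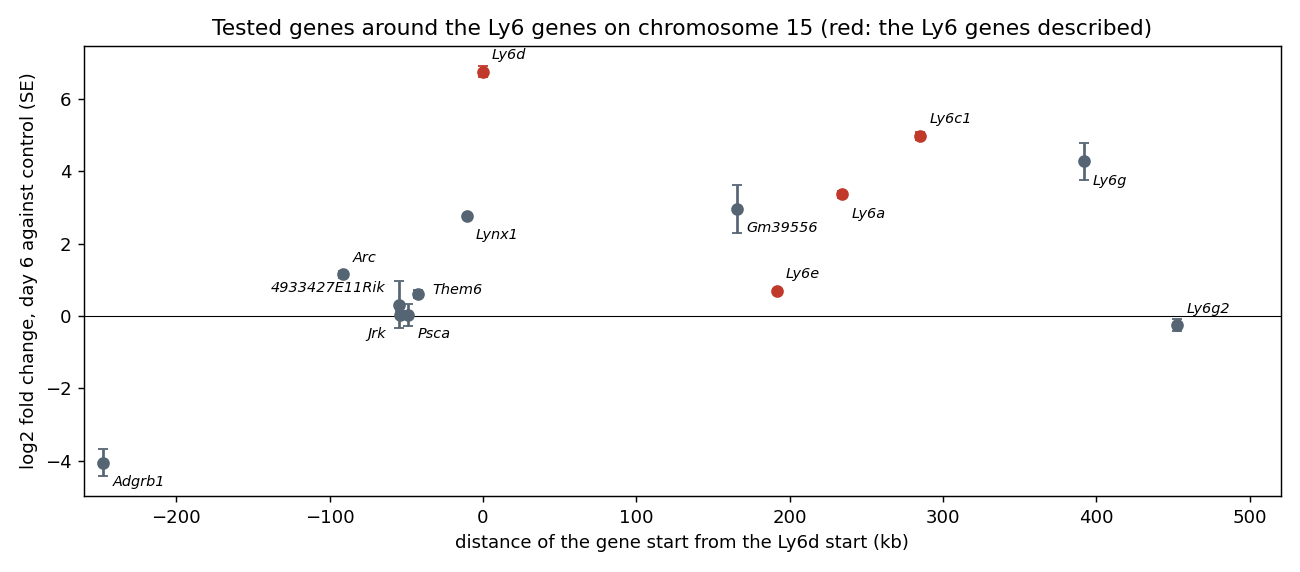
Log2 fold change at day 6 against control with SE (y axis) of the tested genes on chromosome 15 by distance of their start from that of Ly6d in kb (x axis). Red points are 4 of the 5 Ly6 genes described and grey points are the 10 tested neighbours, of which Adgrb1 lies at -4.06 and Lynx1 at 2.77.

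Since interferons are known inducers of Ly6a, Ly6c and Ly6e, genes of that pathway were counted. Of 23 tested interferon receptor and signalling genes, 7 rose and 3 fell at day 2, 12 rose and 5 fell at day 6 and 12 rose and 1 fell at day 12 against control (edgeR). Over all genes tested, 21.2%, 54.3% and 52.8% were called at these days in either direction. The median log2 fold change of the list was 0.07, 0.44 and 0.33, beside -0.0015, -0.0060 and -0.0028 over all genes. Ifngr1, a chain of the interferon gamma receptor, went from 126 ± 7 CPM in control to 194 ± 20 at day 2 and 325 ± 6 at day 6 (SD, n = 3 each; edgeR adjusted p = 1.32e-09 and 2.83e-19). Jak2, a kinase of the interferon gamma receptor, was at 89.6 ± 5.6 CPM in control and 90.6 ± 4.4 at day 2, where it did not pass. It reached 180 ± 8 CPM at day 12 (edgeR adjusted p = 1.95e-15). Stat3, a transcription factor of cytokine signalling, was 1.54-fold higher at day 12 (edgeR adjusted p = 1.83e-11), while Irf8, a transcription factor of myeloid cells, fell from 22.3 ± 1.6 to 7.53 ± 0.29 CPM at day 6 (1.82e-12). The listed interferon genes Ifnb1, Ifng, Ifnl2 and Ifnl3 had 0 counts in every library.

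Of 48 tested interferon-induced genes, none of them among the 5 described, 16 rose and 5 fell at day 2, 27 rose and 4 fell at day 6 and 30 rose and 4 fell at day 12 (edgeR), beside the same 21.2%, 54.3% and 52.8% of all genes. Of all 13513 genes, those called higher numbered 1392, 3614 and 3532 and those called lower 1468, 3729 and 3601. The median log2 fold change of the list was 0.24, 0.57 and 0.82. The class I genes H2-D1 and H2-K1, which present antigen, were not past the threshold at day 2 (edgeR adjusted p = 0.0749 and 0.0945). At day 6 H2-D1 stood at 304 ± 11 CPM against 93.1 ± 3.8 in control (edgeR adjusted p = 2.01e-23), and H2-K1 at 249 ± 7 against 132 ± 7 (5.60e-16). Gbp2, a guanylate-binding protein of antimicrobial defence, was 3.23-fold higher by day 2 (edgeR adjusted p = 5.09e-13). Ifit3b, of the family that blocks viral RNA, fell from 31.7 ± 2.9 CPM in control to 2.72 ± 0.54 at day 2 (edgeR adjusted p = 7.85e-18) and 1.54 ± 0.32 at day 12.

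Genes that make and attach the GPI anchor changed in both directions. Of its 33 tested genes, 2 rose and 1 fell at day 2, 3 rose and 7 fell at day 6 and 3 rose and 9 fell at day 12 (edgeR), beside background shares of 21.2%, 54.3% and 52.8%; without day 2 C the count at day 2 was 6. Pigk, the catalytic subunit of the GPI transamidase, was 1.37-fold higher at day 6 (edgeR adjusted p = 1.51e-06) and Pigt, another subunit, 1.17-fold lower at day 12 (0.00534). Pigo, an ethanolamine phosphate transferase of the pathway, fell from 39.7 ± 1.3 CPM in control to 27.5 ± 1.6 at day 12 (edgeR adjusted p = 9.25e-06). Pgap1, which removes the acyl chain from the anchor's inositol, was 1.41-fold higher at day 2 (edgeR adjusted p = 2.88e-05) but missed the threshold later.

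Markers of the labelled cell type and of others that carry Ly6 antigens were read beside these values. Of 18 proximal tubule markers 7 were tested, of which 1 was called higher and 4 lower at day 2, 1 and 4 at day 6 and 2 and 4 at day 12 (edgeR). Among all genes tested, 21.2%, 54.3% and 52.8% were called at these days in either direction. Slc34a1, Slc5a2, Slc5a12, Kap and Cyp2e1 had 0 counts in every library. Lrp2, the megalin receptor, had 268 ± 17 CPM in control (SD, n = 3) and then 112 ± 10, 230 ± 16 and 95.9 ± 2.9 over the treated days, and Anpep, a brush border peptidase, fell from 114 ± 3 CPM in control to 8.63 ± 1.03 at day 6 (edgeR adjusted p = 9.26e-27). Ggt1, another brush border enzyme, fell from 26.1 ± 2.3 to 3.09 ± 0.77 CPM (2.42e-17), while Ass1, of arginine synthesis, had 30.4 ± 3.5 CPM in control and 100.1 ± 4.4 at day 12. The summed level of the list was 606 to 639 CPM in control, 723 to 783 at day 2, 1171 to 1421 at day 6 and 756 to 952 at day 12. Aqp1, a water channel, was its largest term from day 2 on, with mean CPM of 173, 558, 1044 and 659 from control to day 12, while Hnf4a, a transcription factor of the proximal tubule, had 12.8, 1.03, 0.30 and 2.05 (both named after their values were seen).

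Blood cells and endothelium carry Ly-6C and Sca-1 in the mouse. Of 23 leukocyte markers, Cd3e, Cd3g, Itgam, Tyrobp, C1qa and C1qb had 0 counts in every library and 3 were tested. Csf1r, a receptor of macrophages, had 18.6 ± 1.1 CPM in control and 14.7 ± 1.3, 15.9 ± 0.7 and 7.68 ± 0.14 over the treated days (SD, n = 3 each). It fell at day 12 (edgeR adjusted p = 2.57e-10). Lyz2, a lysozyme of myeloid cells, rose from 0.50 ± 0.34 CPM to 2.28 ± 0.61 at day 6 (edgeR adjusted p = 1.70e-04) and 1.48 ± 0.59 at day 12 (0.00782), and Cd68, of macrophages, from 5.24 ± 0.81 to 8.60 ± 1.41 CPM at day 12 (0.00199). The list thus held 2 higher and 1 lower at day 12, beside 52.8% of all genes called in either direction. At day 6 it held 1 higher and 0 lower, beside 54.3% of all genes, or 2 calls without control A or any 1 day 6 library. At day 2 it held 0 higher and 1 lower, beside 21.2% of all genes, or 0 calls without control B or C. Its summed level was 26.7 to 31.3 CPM in control, 20.1 to 21.1 at day 2, 23.7 to 24.8 at day 6 and 17.9 to 20.2 at day 12, with Csf1r the largest term up to day 6.

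Of 18 endothelial markers, Cdh5, Kdr, Sox17, Sox18 and Robo4 had 0 counts and 4 were tested, of which 1 was called higher and 1 lower at day 2 and 1 and 2 at both later days (edgeR). Beside them, 21.2%, 54.3% and 52.8% of all genes were called at day 2, day 6 and day 12. Flt1, a VEGF receptor, moved in the direction of the Ly6 genes, from 26.6 ± 0.3 CPM in control to 42.0 ± 0.4 at day 2 (edgeR adjusted p = 1.23e-07), 37.6 ± 2.1 at day 6 (5.43e-06) and 44.9 ± 1.4 at day 12 (9.16e-10). Ramp2, a receptor activity-modifying protein, fell from 10.7 ± 0.3 CPM to 5.07 ± 1.05, 2.64 ± 0.54 and 1.97 ± 0.43 (edgeR adjusted p = 8.68e-05, 3.46e-10 and 1.04e-11). Egfl7, a secreted vascular factor, fell from 6.15 ± 0.44 CPM to 2.86 ± 0.81 at day 12 (edgeR adjusted p = 2.32e-04), and Plvap, of vessel fenestrae, did not pass on any day. The sum was 49.1 to 50.4 CPM in control, 55.7 to 60.5 at day 2, 47.9 to 50.1 at day 6 and 55.5 to 56.5 at day 12.

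Of 20 markers of urothelium and stratified epithelium, the latter a tissue that carries Ly6d, 6 were tested and Upk2 had 0 counts. Calls were 2 higher and 2 lower at day 2, 2 and 3 at day 6 and 3 and 1 at day 12 (edgeR). The shares called among all genes were 21.2%, 54.3% and 52.8% at these days. The sum of this list was 22.7 to 26.7 CPM in control, 27.6 to 29.5 at day 2, 26.5 to 29.4 at day 6 and 50.7 to 56.2 at day 12. Its largest terms at day 12 were Sprr1a and Pparg, with mean CPM of 1.67 and 1.86 in control and 18.9 and 13.3 at day 12. Krt20 and Grhl3 had 8.67 and 5.19 in control and 8.38 and 1.98 at day 12 (both named after their values were seen). The rise of the sum was thus not shared by the whole list. Pparg, a nuclear receptor of fat and urothelium, rose from 1.86 ± 0.23 CPM to 7.79 ± 0.74 at day 2 (edgeR adjusted p = 3.97e-09), while Krt6a and Sprr1a, of stratified epithelium, reached 3.07 ± 0.57 and 18.9 ± 0.5 CPM at day 12. Gata3, a transcription factor of urothelium and distal nephron, was lower at day 2 (edgeR adjusted p = 0.00718) but short of the threshold at day 12. 
For the collecting duct, Aqp2, Aqp4, Foxi1, Atp6v1g3 and Atp6v0d2 had 0 counts and 6 of 19 markers were tested, with 1 higher and 1 lower at day 2, 1 and 4 at day 6 and 1 and 3 at day 12 (edgeR). Of all genes tested, 21.2%, 54.3% and 52.8% were called at day 2, day 6 and day 12. The 5 calls of this list at day 6 became 3 without control C, 2 without day 6 A and 3 without day 6 B. Scnn1a, a sodium channel subunit, rose from 9.38 ± 1.57 CPM in control to 25.7 ± 4.0 at day 2 (edgeR adjusted p = 2.44e-05) and 22.1 ± 2.0 at day 6 (3.72e-05), and stood at 14.2 ± 4.6 at day 12 (0.0232). Slc4a1, an anion exchanger, fell from 17, 17 and 32 counts in control to 0 in each day 6 library, at least 23.0-fold lower against 3 counts over the group. Hsd11b2 fell from 3.30 ± 1.04 CPM in control to 1.05 ± 0.41 at day 12 (edgeR adjusted p = 2.69e-04). Tfcp2l1, the largest term of the list in each group, fell from 94.1 ± 2.5 to 73.0 ± 6.1 CPM at day 12 (2.18e-04). The sum of the list was 109 to 115 CPM in control, 110.2 to 133 at day 2, 99.0 to 112 at day 6 and 84.7 to 99.5 at day 12.

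Fibroblast genes moved in both directions at the later days. Of 17 markers, Pdgfra, Col3a1, Thy1 and Mfap5 had 0 counts and 7 were tested, with 4 higher and 2 lower at day 6 and at day 12 and 2 higher and 2 lower at day 2 (edgeR). The share of all genes called was 54.3% at day 6, 52.8% at day 12 and 21.2% at day 2. The 4 calls of this list at day 2 became 2 without control B, day 2 A or day 2 B. Dcn, a matrix proteoglycan, had 1, 3 and 2 counts in control, 0 in each day 2 library, 35, 36 and 32 at day 6 and 154, 169 and 159 at day 12, and it rose at both later days (edgeR adjusted p = 1.97e-10 and 3.56e-18). Postn, a matrix protein, had 2 counts over the control group and 208 at day 12, a ratio of 97.3 after scaling (95% counting interval 26.6 to 809; edgeR adjusted p = 1.72e-13). Fbln1, of the basement membrane, rose from 91.4 ± 2.6 CPM to 152 ± 6 at day 6 and 176 ± 9 at day 12 (edgeR adjusted p = 4.62e-12 and 4.43e-15). Dpp4, a surface peptidase also found on fibroblasts, fell from 3.94 ± 0.30 CPM to 0.37 ± 0.13 at day 12 (edgeR adjusted p = 5.61e-08). The sum was 405 to 449 CPM in control, 413 to 437 at day 2, 423 to 438 at day 6 and 435 to 466 at day 12. Its largest term in each group was Gsn, with mean CPM of 331, 310, 268 and 244 from control to day 12 (named after its values were seen). The part of all these markers in the Ly6 results was not tested.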

How the data were processed

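Bulk polyA RNA of PT-22 cells was measured in 12 libraries, grouped by their labels into control, day 2, day 6 and day 12 with 3 libraries each. Per the submitters' processing notes, reads were handled with RSEM 1.3.3, STAR 2.7.8a, FastQC 0.11.8 and cutadapt 2.3, and the build was GRCm38; the annotation and the strand setting are not given in the sources used here. The authors deposited RSEM expected counts as whole numbers, and TPM values in a table of their own.

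In R 4.3.3 with edgeR 4.0.16, filterByExpr (by group) kept 13513 genes and TMM scaled the libraries. A robust quasi-likelihood model with the group as its only term used all 12 libraries, with 8 residual degrees of freedom. Each edgeR SE is the absolute log2 fold change divided by the square root of the F statistic, and at low counts it can understate the error. Tests were two-sided, with p adjusted by Benjamini-Hochberg over the 13513 genes and 0.05 as the threshold. The scripts were tested on simulated counts. DESeq2 1.42.0, limma 3.58.1 on log2(TPM + 1) and log2(TPM + 0.1), other scaling, no filter and leaving out each library were alternatives. Replicate libraries differed by more than sampling noise (chi-square per degree of freedom 2.12 to 7.56).

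The genes, lists and tests were chosen with earlier results of these data known. Named are the 5 genes, every tested gene of the other Ly6/uPAR list and of the neighbourhood, up to 4 genes of each other list with the smallest p over the 4 groups, and the 4 genes most correlated with each Ly6 gene; the other genes at 0 counts or used as examples were named after their values were seen. The 10 lists held 288 symbols, 4 of them not found. Transcripts and positions came from GENCODE M21, start windows from RefSeq (GRCm38.p6).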

Additional observations from a re-analysis of the deposited data

Results flagged for a closer look

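Each result here is a log2 difference between day 12 and day 6, that is, between the effects against the shared control at these days, past an adjusted p of 0.05 in edgeR. Ly6d (-0.995), Ly6a (-0.33) and Ly6e (-0.24) were lower at day 12 in 3 of 3 libraries. Among the other family genes, Lynx1 (-0.26) and Plaur (-0.34) were lower and Lypd6 (1.03), Lypd6b (0.79) and Ly6g (0.88) higher.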

How the results depend on the processing

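Over 20 results, 5 contrasts each for Ly6d, Ly6c1, Ly6a and Ly6e, there were 265 values under alternatives, of which 252 kept their direction and side of the threshold or stayed within 1 SD. With limma on log2(TPM + 1) and log2(TPM + 0.1), day 6 against day 2 moved to 1.42 and 1.42 for Ly6c1, 1.11 and 1.11 for Ly6a and -0.36 and -0.36 for Ly6e, and day 6 against control to 0.76 and 0.76 for Ly6e. Leaving out 1 library at a time, Ly6d ran from 6.52 to 7.24 at day 6 and from 5.53 to 6.25 at day 12 against control. Between day 12 and day 6, Ly6a ran from -0.40 to -0.27 and Ly6c1 from -0.025 to 0.093, reversed at -0.0073 without day 6 C and -0.025 without day 12 B. Adding Ly6c1 and Ly6c2 gave 0.05 for the last. The cause was not tested.

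Counts of calls moved by over 1.5 times for the other family genes (8 at day 6 without the filter, 3 in either limma setting between day 12 and day 6), for GPI genes in both limma settings (0 at day 2, 4 at day 6, 4 at day 12) and from 2 to 6 at day 2 when 1 library was left out, for interferon-induced genes at day 2 (11 and 13 with limma) and for neighbours without the filter (10 at day 6, 9 at day 12) and with DESeq2 (8 at day 12). In limma on log2(TPM + 1), all genes called numbered 1744 at day 2, against 2860 in edgeR, and 1379 between day 12 and day 6, against 2971.

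Between groups, deviations of libraries with the same letter correlated at -0.076 to 0.271 over 18 pairs (median 0.033). For libraries with different letters the range was -0.251 to 0.167 over 36 pairs (median -0.022). The ranges overlap and the same-letter median was the higher, so these values cannot decide whether the letters pair the libraries. With the letter as a replicate block, Ly6d between day 12 and day 6 was -0.99 and Ly6a -0.33, and no call between these days changed for Ly6d, Ly6c1, Ly6a or Ly6e, the 4 genes tested. Depth limits Ly6c2 and the control levels of Ly6d, Ly6g and Lypd1.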
